A study of Mus musculus with 2 samples.

Results

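The 9 genes Ifnar1, Ifnar2, Jak1, Tyk2, Stat2, Irf9, Irf1, Irf3 and Irf7 carry the type I interferon signal from the cell surface to DNA or act next to that route. They were picked by symbol from the 24532 genes of a count table and from tables of TPM (a transcript level scaled for gene length and library size), and all 9 were found in each table. The cells were cardiac myofibroblasts, the collagen-producing cells of the injured heart, from mice at 3 days after myocardial infarction (MI), labelled C57BL/6 and given as C57BL/6J in the study's methods for isolated myofibroblasts. Heart cells were allowed to attach, CD45-positive leukocytes were removed with magnetic beads, and the remaining cells were grown on plastic in DMEM with FBS. Both groups received 12.5 nM siRNA with Lipofectamine RNAiMAX and were harvested after 72 h. The siCtrl culture received a control siRNA and the siVgll3 culture an siRNA against Vgll3, which encodes a transcription cofactor. Each group is 1 library from a culture treated with a single siRNA, and the sources used here do not state how many animals gave the cells. No untransfected library was analysed here, so an effect of transfection shared by both cultures could not be measured.

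Type I interferons bind a receptor made of the chains IFNAR1 and IFNAR2. The kinases TYK2 and JAK1, which sit on these chains, then phosphorylate STAT2, which joins IRF9 in ISGF3, a complex that binds the interferon-stimulated response element (ISRE) of antiviral genes. Gamma-activated sites (GAS) are the matching element of genes that answer interferon-gamma. IRF3 is present before infection and starts interferon production, IRF7 is made in quantity only after ISGF3 has acted and extends that production to the interferon-alpha genes, and IRF1 drives antigen presentation genes. Fibroblasts carry this receptor and are known to answer interferon with antiviral genes.

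The data show a split within the set. Stat2, Irf9 and Irf7 were several-fold lower in siVgll3 than in siCtrl, whereas the receptor chains, the kinases, Irf1 and Irf3 differed by less than the threshold used for the comparison. Differences are given as M, the log2 ratio of siVgll3 TPM over siCtrl TPM, and levels as A, the log2 of the mean TPM of both libraries. A gene counts as lower at M < −0.5 and as higher at M > 0.5, each with A > 0. The thresholds for lower genes are those of the study, which does not define A and reports a different count of lower genes. The threshold for higher genes mirrors them. By these thresholds 3 of the 9 genes were lower and 0 were higher, while 11.4% of the 11754 genes with A > 0 were lower and 5.73% were higher. All 9 genes passed the filter on A. Their median M was −0.33, and the median over all 11754 genes was −0.05. With 1 library per group there is no test of the siRNA and no p-value. Each M carries a 95% exact (Clopper-Pearson) interval from its reads, which covers counting error only and compares these libraries, not the treatments.

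Both libraries were deep, and their counts summed to 140815237 reads for siCtrl and 125789276 for siVgll3. Vgll3, the siRNA target, was at 202 TPM in siCtrl against 84.0 TPM in siVgll3, so 41.6% of its level was left. All 11 fibroblast and myofibroblast markers were detected, with Acta2 at 3296 TPM in siCtrl against 3866 TPM in siVgll3, and 5 of the 11 were lower and 2 higher. Lower were Postn, Col1a1, Col3a1, Tcf21 and Col1a2 (M −1.22, −0.90, −0.86, −0.58 and −0.53), and higher were Thy1 and Tagln (M 0.72 and 0.52). These are bulk libraries, in which fewer cells of a type and less RNA per cell cannot be told apart. Of 15 leukocyte markers, 7 had no read in either library, among them Ptprc (the gene of CD45), Adgre1 and Itgam, and the 15 together summed to 16.3 TPM in siCtrl and 14.8 TPM in siVgll3. Of the 5 with A > 0, 1 was lower and 3 were higher, with a median M of 0.50. The lower was Lyz2, at 10.9 TPM in siCtrl against 3.13 TPM in siVgll3 (M −1.80). The higher were Cd53, Cd14 and Csf1r (M 2.96, 0.62 and 0.50). Reads of the 15 summed to 1490 in siCtrl and 1943 in siVgll3. Of 6 endothelial markers all were detected, with sums of 26.7 and 22.3 TPM, of which Tek made up 19.5 and 13.4 TPM (M −0.54). Of the 4 with A > 0, Tek was lower and 0 were higher, with M of 0.47, 0.50 and −0.02 for Pecam1, Cdh5 and Emcn. Kdr and Vwf, below the filter on A, had M of 0.97 and −0.51. Of 5 markers of plasmacytoid dendritic cells, the main interferon-producing leukocytes, Siglech and Ccr9 had no read, while Bst2 and Tcf4, which other cells also make, had M of −1.92 and −0.60 and brought the sums to 128 and 51.9 TPM. Ly6d, without a TPM, had 17 reads in siCtrl and 0 in siVgll3. Of 6 cardiomyocyte markers, Myh6, Actc1, Myl2 and Ryr2 had no read, although Tnnt2 was at 60.0 TPM in siCtrl against 10.4 TPM in siVgll3. Tnni3, without a TPM, went the other way, with 0 reads in siCtrl and 10 in siVgll3. The part of these markers in the results was not tested.

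The letters of the ISRE and of GAS were looked for around each start site, because these are the elements through which the pathway acts on its own genes. The windows ran from 250 bases before to 50 after the RefSeq start (GRCm38.p6, the assembly also called mm10), and all 9 genes had one. The ISRE core, searched on both strands as the letters GAAA, NN and GAAA in a row with N for any base, was in the window of 1 of the 9 genes, Stat2, against 3.99% of the 27025 genes with a window. The GAS core, the letters TTC, NNN and GAA in a row, which reads the same on both strands, was in the windows of 3 of the 9, Irf1, Ifnar2 and Ifnar1, against 9.55% of all genes. The sequences are shown 5′ to 3′ on the gene's strand, which is the plus strand for all 3 genes printed, with the match in capitals and the 25 bases on each side in lower case. They are shown because Stat2 is a gene of the lower group with an ISRE match, and Irf1 and Ifnar2 are genes within the threshold with a GAS match.
Stat2, chr10:128270251-128270310: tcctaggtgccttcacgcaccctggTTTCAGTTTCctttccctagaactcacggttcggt
Irf1, chr11:53769899-53769957: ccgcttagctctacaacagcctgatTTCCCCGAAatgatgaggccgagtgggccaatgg
Ifnar2, chr16:91372544-91372602: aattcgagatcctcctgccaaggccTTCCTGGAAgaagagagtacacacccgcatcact
The Stat2 match lies at −222 to −213 from the start and reads as the ISRE core on the opposite strand. The Irf1 match lies at −90 to −82 and the Ifnar2 match at −214 to −206. The Ifnar1 match crosses the start, from −5 to 4. A match is a description of letters and not a bound site. The windows of Irf9 and Irf7, the other genes of the lower group, held neither core, which says only that these letters are not in those windows.

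Both receptor chains were expressed in both libraries. Ifnar1 (NCBI gene 15975, chromosome 16, 91485238 to 91507441, plus strand, in GENCODE vM21 for GRCm38, as for all positions here) encodes the chain that carries TYK2. It had 11658 reads and 26.0 TPM in siCtrl, and 8611 reads and 20.8 TPM in siVgll3. Its M was −0.33 (interval −0.37 to −0.29), so 79.8% of the siCtrl level was left. That difference is beyond counting error between these libraries but within the threshold. Ifnar2 (gene 15976, chromosome 16, 91372783 to 91405589, plus strand) encodes the chain that carries JAK1 and binds interferon most tightly. It had 8424 reads and 85.2 TPM in siCtrl, and 7709 reads and 87.0 TPM in siVgll3. By the deposited TPM its M was 0.03 (interval −0.01 to 0.08), which made it the only gene of the 9 with M above 0 and the only one whose interval held 0. The intervals of the chains do not overlap, and the TPM ratio of Ifnar2 over Ifnar1 was 3.27 in siCtrl and 4.19 in siVgll3. The level of Ifnar2 relative to Ifnar1 leans on the transcript length used for TPM. The siCtrl table needs 98.9 reads per TPM for Ifnar2 and 448 for Ifnar1, although the longest transcripts that the count table names for them and GENCODE holds are 3047 and 3909 bases long. With the reads of both genes spread over these lengths, on the scale of Ifnar1, Ifnar2 would be at 24.1 in siCtrl and 23.9 in siVgll3, and its ratio over Ifnar1 would be 0.927 and 1.15. Which chain was higher is therefore not established, nor is the sign of the M of Ifnar2. Another named transcript of Ifnar2 is 1099 bases long, and the tables do not separate it from the long form. Ifnar2 also shares 13869 bases with Gm21970, a gene on the same strand that joins it to the neighbouring receptor locus, so the origin of part of its reads is uncertain.

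The kinases stood far apart in level and both were somewhat lower in siVgll3. Jak1 (gene 16451, chromosome 4, 101152367 to 101265282, minus strand) encodes the kinase shared by type I, II and III interferon receptors and by the interleukin-6 family receptors. It had 47810 reads and 141 TPM in siCtrl, and 36888 reads and 118 TPM in siVgll3. It was the highest of the 9 genes in both libraries, with an M of −0.26 (interval −0.28 to −0.24). Tyk2 (gene 54721, chromosome 9, 21104068 to 21131243, minus strand) had 2108 reads and 6.85 TPM in siCtrl, and 1407 reads and 4.96 TPM in siVgll3. Its M of −0.47 was the closest to the threshold from inside, and its interval, −0.57 to −0.37, crosses −0.5, so at this depth its side of the threshold is not settled even between these libraries. The intervals of Jak1 and Tyk2 do not overlap, and the ratio of Jak1 over Tyk2 was 20.6 in siCtrl and 23.8 in siVgll3. Tyk2 overlaps the antisense gene 1700084C06Rik over 24326 bases of its span. Whether the counting used strand is not given in the sources used here, although the library kit marks it.

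**Figure D1:**
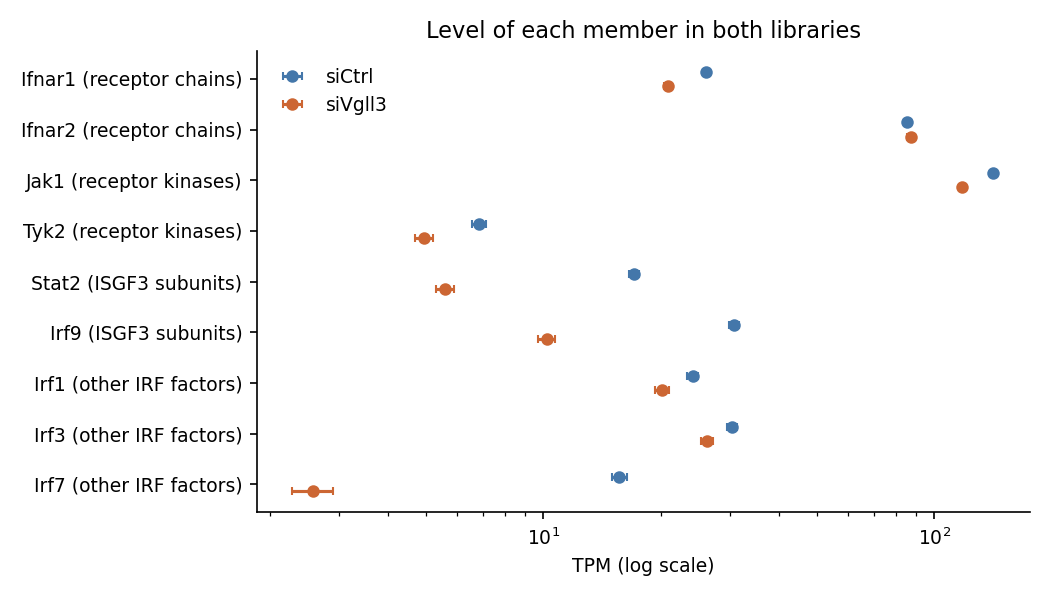
The plot shows the TPM of each of the 9 genes (log axis) in siCtrl (blue) and siVgll3 (orange), grouped by role, with bars for the exact 95% Poisson interval of the reads. The points are far apart for Stat2, Irf9 and Irf7, with Irf7 at 15.6 and 2.57 TPM, and close together for Ifnar2, at 85.2 and 87.0 TPM.

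Stat2 and Irf9, which encode subunits of ISGF3, were lower to almost the same degree. Stat2 (gene 20847, chromosome 10, 128270559 to 128292849, plus strand) encodes the subunit that brings the activation domain. It had 4784 reads and 17.1 TPM in siCtrl, and 1457 reads and 5.61 TPM in siVgll3. The siVgll3 level was 3.04-fold lower, with an M of −1.60 (interval −1.69 to −1.52), and only 119 of the 11754 genes had a lower M. Irf9 (gene 16391, chromosome 14, 55603571 to 55610030, plus strand) encodes the subunit that recognises the ISRE. It had 4861 reads and 30.8 TPM in siCtrl, and 1483 reads and 10.2 TPM in siVgll3. It was 3.02-fold lower, with an M of −1.59 (interval −1.68 to −1.51). Thus 32.9% of the Stat2 level and 33.2% of the Irf9 level were left. Their intervals overlap, and the ratio of Irf9 over Stat2 was 1.80 in siCtrl and 1.82 in siVgll3. Irf9 shares 123 bases with the end of Rnf31, a gene on the same strand with 9.59 TPM in siCtrl, 6.48 TPM in siVgll3 and an M of −0.57. That M is closer to 0 than the M of Irf9, and the shared stretch is short beside the 6460 bases of the Irf9 span.

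STAT genes of other cytokine receptors lay nearer to 0 in M than Stat2. Stat3, the mediator of interleukin-6 signals, was at 165 and 135 TPM (M −0.29), and Stat6, the mediator of interleukin-4 signals, at 63.3 and 59.8 TPM (M −0.08). Stat5b and Stat5a had M of −0.30 and −0.05, and Stat4 had no read. Each of these 4 measured genes was within the threshold.

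Among the other IRF genes of the set, Irf7 alone was past the threshold, and it had the lowest M of all 9. Irf7 (gene 54123, chromosome 7, 141262706 to 141266481, minus strand) had 1818 reads and 15.6 TPM in siCtrl, and 275 reads and 2.57 TPM in siVgll3. The level was 6.09-fold lower, with an M of −2.61 (interval −2.79 to −2.42), and 16.4% of it was left. Only 23 of the 11754 genes had a lower M. Irf7 overlaps the opposite-strand gene Phrf1 over 45 bases, and Phrf1 had an M of −0.06. Irf3 (gene 54131, chromosome 7, 44997648 to 45002848, plus strand), its closest partner in interferon induction, had 3980 reads and 30.4 TPM in siCtrl, and 3218 reads and 26.2 TPM in siVgll3. Its M was −0.21 (interval −0.28 to −0.14). The ratio of Irf3 over Irf7 was 1.94 in siCtrl and 10.2 in siVgll3. Irf3 shares 1065 bases with Bcl2l12 on the opposite strand, which had an M of −0.09.

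Irf1 (gene 16362, chromosome 11, 53770014 to 53778374, plus strand) had 3286 reads and 24.1 TPM in siCtrl, and 2539 reads and 20.1 TPM in siVgll3. Its M was −0.26 (interval −0.34 to −0.19). Irf2, which binds the same element and mostly opposes IRF1, was at 23.8 TPM in siCtrl against 20.1 TPM in siVgll3, with an M of −0.24. Irf1 shares 907 bases with Gm17334 on the opposite strand. The M intervals of Irf1 and Irf2 overlap, and the ratio of Irf1 over Irf2 was 1.01 in siCtrl and 0.998 in siVgll3. Among the 5 IRF and IRF2-binding protein genes outside the set with A > 0, 0 were lower and 0 higher, with a median M of −0.19. The highest of them were Irf2bpl, at 72.2 and 83.8 TPM (M 0.22), and Irf2bp2, at 45.4 and 39.7 TPM (M −0.19). Irf8, the IRF of myeloid cells, was at 0.266 TPM in siCtrl against 0.299 TPM in siVgll3, below the filter on A.

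**Figure D2:**
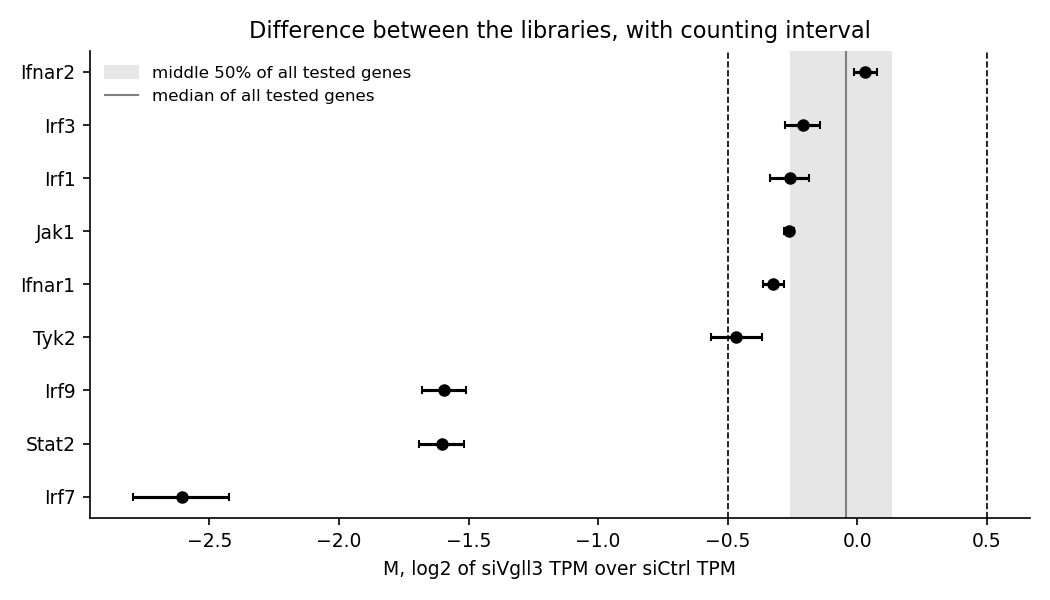
The plot orders the 9 genes by M, the log2 ratio of siVgll3 TPM over siCtrl TPM, with the 95% counting interval as bars, dashed lines at −0.5 and 0.5, a grey band for the middle 50% of the 11754 genes with A > 0 (−0.26 to 0.13) and a grey line at their median. Irf7, Stat2 and Irf9 lie at −2.61, −1.60 and −1.59, apart from the other genes, which run from −0.47 for Tyk2 to 0.03 for Ifnar2.

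The order of the levels differed between the libraries. In siCtrl, by the deposited TPM, it ran Jak1, Ifnar2, Irf9, Irf3, Ifnar1, Irf1, Stat2, Irf7 and Tyk2 from high to low. Only Irf9 and Irf3, at 30.8 and 30.4 TPM, had intervals that overlap. In siVgll3 it ran Jak1, Ifnar2, Irf3, Ifnar1, Irf1, Irf9, Stat2, Tyk2 and Irf7, and only Ifnar1 and Irf1, at 20.8 and 20.1 TPM, overlapped. The place of Ifnar2 rests on the short length noted above, since at 24.1 it would lie near Irf1 in siCtrl. Irf9 went from the third place to the sixth, and Irf7 from above Tyk2 to below it. Of the 9 genes, 8 had M below 0 with the whole interval below 0, where 45.8% of all 11754 genes had the whole interval below 0. The 5 of these 8 within the threshold had M from −0.47 to −0.21.

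**Figure D3:**
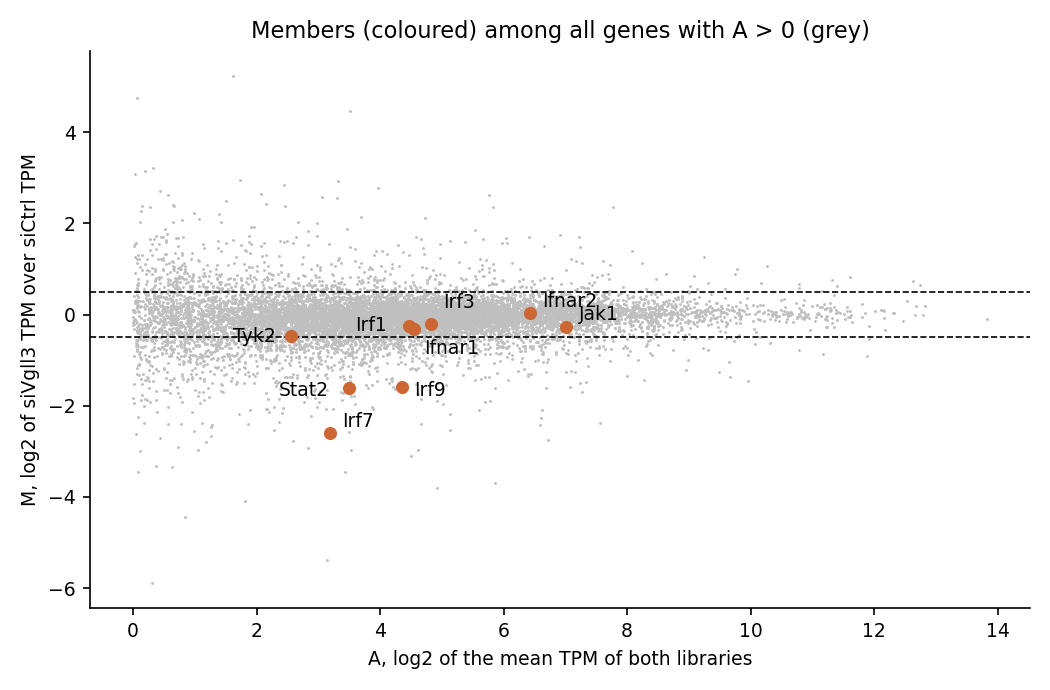
The plot sets M against A for the 11754 genes with A > 0 (grey) and the 9 genes (orange, named), with dashed lines at −0.5 and 0.5. Irf7 (A 3.19), Stat2 (A 3.50) and Irf9 (A 4.36) lie below the grey band at middle levels, where each value rests on at least 275 reads, and the other genes lie within it.

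For each of the 9 genes the gene with the most similar pair of levels was found, by distance over the log2 TPM of both libraries. They were Acaca for Ifnar1, Stx12 for Ifnar2, Eprs for Jak1, C1s1 for Tyk2, Col15a1 for Stat2, Upk3b for Irf9, Map2k5 for Irf1, Dolk for Irf3 and Snurf for Irf7. The distance was at most 0.06 for all of these pairs except Irf7 and Snurf, where it was 0.36. Snurf was at 12.2 TPM in siCtrl against 2.60 TPM in siVgll3. Few genes share the levels of Irf7, and 2 libraries give such likeness no further meaning.

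The ligands of the receptor were almost unread. Of 21 interferon genes (the type I family, Ifng, Ifnl2 and Ifnl3), 19 had no read in either library and none had A > 0. Ifnz, a type I gene, had 42 reads in siCtrl and 36 in siVgll3, which is 0.449 and 0.413 TPM. Ifnb1, the type I gene that fibroblasts are known to make first, had 0 reads in siCtrl and 14 in siVgll3. It had no TPM and was outside the comparison. For each gene at 0 the level lies under a floor of 3 reads per library, and interferon protein in the medium was not measured by these libraries.

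The sensors and adaptors that lead to IRF3 and IRF7 were uneven in M. Of 18 with A > 0, 6 were lower and 0 higher, with a median M of −0.29. Lower were the RNA sensors Ddx58 (27.1 and 15.5 TPM, M −0.80), Ifih1 (M −1.36) and Dhx58 (M −2.47), the nucleic acid sensor Zbp1 (17.3 and 8.46 TPM, M −1.04), the ubiquitin ligase Trim25 (M −0.59) and the kinase Ikbke (M −0.59). Ddx58, Ifih1, Dhx58, Zbp1 and Trim25 are themselves known interferon-stimulated genes. The adaptors Tmem173 (70.6 and 59.2 TPM), Myd88 (38.5 and 28.7 TPM) and Mavs had M of −0.25, −0.42 and −0.02. The kinases Irak1 (29.0 and 31.6 TPM) and Tbk1, which activates IRF3, had M of 0.13 and 0.16.

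The receptors that share these kinases behaved unevenly. Among the type II and III receptor chains and Jak2, 4 had A > 0, of which 0 were lower and 0 higher. Ifngr1 was at 70.8 and 52.1 TPM (M −0.44) and Ifngr2 at 39.7 and 48.0 TPM (M 0.27), so their ratio was 1.78 in siCtrl and 1.09 in siVgll3. Jak2, the kinase of the type II receptor, was at 29.2 and 28.3 TPM (M −0.04). Of 9 other receptor chains that use JAK1 or TYK2 with A > 0, 5 were lower and 0 higher, with a median M of −0.58. These were Il6st, the shared interleukin-6 family chain (309 and 192 TPM, M −0.69), Il11ra1 (75.6 and 41.9 TPM, M −0.85), Il6ra (M −1.25), Lifr (M −0.58) and Il27ra (M −0.97). The median was −0.34 with 1 TPM added. Il4ra, at 162 and 152 TPM, and Osmr, a further interleukin-6 family receptor at 109 and 98.0 TPM, had M of −0.09 and −0.16.

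Among 11 inhibitors of the receptor pathway with A > 0, 2 were lower and 0 higher, with a median M of −0.18. Usp18, an interferon-stimulated gene whose protein holds IFNAR2 inactive, was at 7.53 TPM in siCtrl against 1.70 TPM in siVgll3 (M −2.15). Ptpn11, the phosphatase SHP2, which also has roles in growth factor signalling, was at 120 and 48.3 TPM (M −1.31). The suppressors Socs1 and Socs3 had M of −0.06 and −0.18, and Ptpn1 had −0.23.

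The known targets of the complex that STAT2 and IRF9 form were lower nearly throughout. Of 24 ISGF3 target genes with A > 0, 22 were lower and 0 higher, with a median M of −1.49. Their direction was already known when the list was written, so it is not separate evidence. The summed level of the list was 562 TPM in siCtrl and 247 TPM in siVgll3. The highest of the lower genes were Lgals3bp, a secreted glycoprotein gene (170 and 93.0 TPM, M −0.87), Bst2, which tethers virus particles (82.6 and 21.9 TPM, M −1.92), Ifi35 (35.4 and 17.3 TPM, M −1.03) and Isg15, a ubiquitin-like modifier (42.6 and 8.02 TPM, M −2.41). Ifit2 and Herc6 were the exceptions, with M of −0.21 and −0.12, although Ifit1 and Ifit3, of the family of Ifit2, had −2.92 and −1.95. The exceptions, Ifit1 and Ifit3 were named after their values were seen. Oas2, outside the TPM tables, had 70 reads in siCtrl and 0 in siVgll3. It was 20.8-fold higher in siCtrl when 0 is set to 3 reads and the totals are scaled. Mx1 and Oas3, also without a TPM, had 10 and 8 reads in siCtrl and 0 in siVgll3. Epsti1, likewise without a TPM, went the other way, with 2 reads in siCtrl and 11 in siVgll3.

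Genes known to answer interferon-gamma or IRF1 showed a like count. Of 16 with A > 0, 14 were lower and 0 higher, with a median M of −1.18, and the list summed to 384 TPM in siCtrl and 226 TPM in siVgll3. The highest of the lower genes were the interferon-induced GTPase gene Irgm1 (127 and 77.1 TPM, M −0.72) and the antigen presentation genes Tapbp (71.9 and 46.3 TPM, M −0.63), Psmb10 (35.7 and 24.6 TPM, M −0.54) and Tap2 (25.8 and 14.5 TPM, M −0.84). Within the threshold were Icam1, at 25.3 and 24.8 TPM (M −0.02), and Gbp2 (M −0.37). Irf1 itself, at M −0.26, was also within the threshold. Which factor acts on the genes of either target list was not tested. The ISRE core was in the start-site window of 10 of 24 ISGF3 target genes with a window (41.7%) and of 10 of 18 genes of the interferon-gamma and IRF1 list (55.6%).

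**Figure D4:**
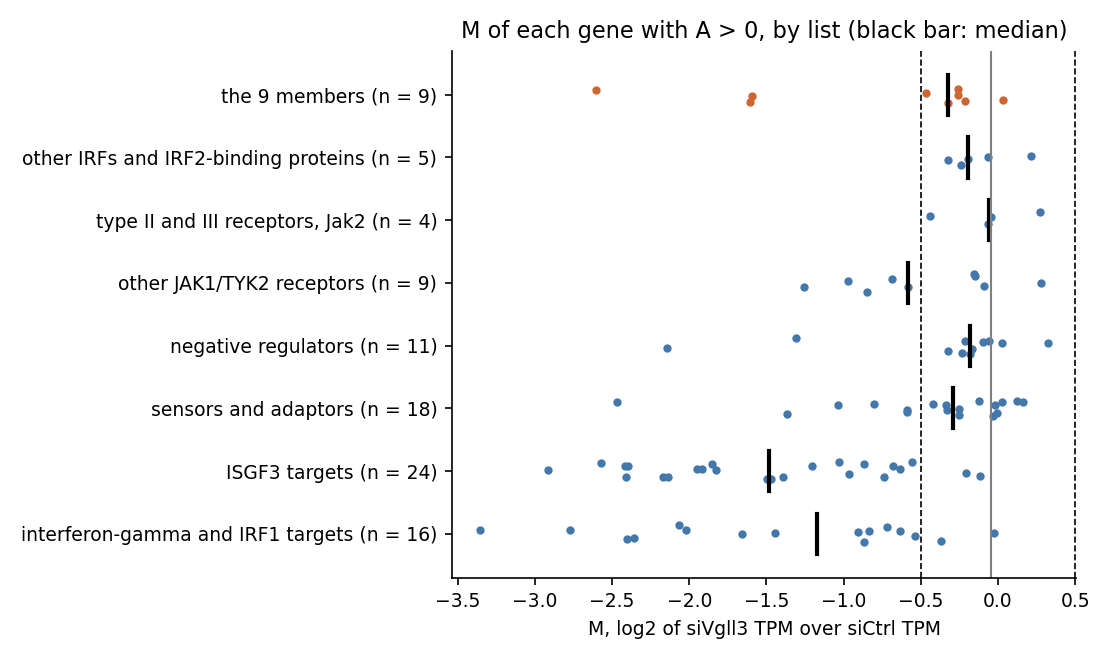
The plot shows M of every gene with A > 0 in each list, with the 9 genes in orange, other lists in blue, a black bar at each median, dashed lines at −0.5 and 0.5 and a grey line at the median of all genes. The medians of the target lists lie at −1.49 and −1.18, and those of the type II and III receptor chains with Jak2 and of the other IRF genes at −0.06 and −0.19.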

How the data were processed

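RNA from 1 siCtrl and 1 siVgll3 culture of mouse cardiac myofibroblasts was sequenced, and samples were grouped by their treatment labels. Libraries came from a stranded TruSeq mRNA kit, and the authors, per the submitters' notes, used FastQC, Trimmomatic, HISAT2, StringTie and mm10, with versions and strand setting not given in the sources used here. The authors deposited raw read counts per gene, which are not normalized. The authors also deposited TPM, scaled for gene length and library size, and the TPM tables hold genes with a read in both libraries only.

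M and A were computed from TPM with nothing added. Intervals of M are 95% Clopper-Pearson intervals of the count ratio given the sum of both counts, shifted onto the TPM ratio, and intervals of TPM are exact Poisson intervals of the reads. Reads are not independent molecules, so both cover counting error only. The interval script was tested on simulated data. Scaling alternatives used edgeR 4.0.16 and DESeq2 1.42.0 in R 4.3.3, with no model fitted. TMM factors were 0.997 and 1.003, and size factors 1.05 and 0.949. Other steps used Python 3.11.15 with scipy 1.17.1.

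The 9 genes, the gene lists and the markers were chosen with earlier results of these data known. The 9 genes are all named. Of each list the 3 of highest mean TPM are named, with all genes past the threshold in lists of at most 12 symbols and the 4 of highest mean TPM past it in longer lists. Other genes were named after their values were seen. Windows around start sites came from RefSeq, positions and transcripts from GENCODE vM21. Columns of the tables that belong to no sample numbered 0. Another gene of the pathway is not reported here.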

Additional observations from a re-analysis of the deposited data

Results flagged for a closer look

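Ifnb1 and Tlr7 were flagged because they had reads in siVgll3 and none in siCtrl and lie outside the TPM tables. Ifnb1, the type I interferon gene upstream of the receptor, had 14 reads in siVgll3, at least 5.22-fold higher than 3 reads in siCtrl after scaling to the library totals. Tlr7, a sensor of single-stranded RNA that signals to IRF7, had 32 reads in siVgll3 (interval 21.9 to 45.2), 11.9-fold higher by the same rule. Reads of this number in a single library are not particular to these genes. Of the 9428 genes with 0 reads in siCtrl, 190 had at least 14 reads in siVgll3 and 48 had at least 32, and of the 9217 genes with 0 reads in siVgll3, 137 and 31 did so in siCtrl. With 1 library each, neither difference has a replicate check.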

How the results depend on the processing

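Stat2, Irf9 and Irf7 were the 3 lower genes of the 9, and 0 were higher, under each of the 11 alternatives: CPM, TMM or DESeq2 size factors in place of TPM, 0.1 or 1 TPM added, centred M, A > 2, no filter on A, at least 10 reads in each library, a threshold of 1, and the whole interval beyond 0.5. Of 54 values of M for the 9 genes under the alternatives of scaling, addition and centring, 43 stayed within the counting interval, 11 moved beyond it and 0 changed sign. The largest shift was 0.38, for Irf7, whose M ranged from −2.57 to −2.22, the latter with 1 TPM added. Tyk2 ranged from −0.46 to −0.40. Of 48 list medians, 10 moved and 0 changed sign, and the median of the other JAK1 or TYK2 receptor chains went from −0.58 to −0.34 with 1 TPM added. The count of all lower genes was 1341, and 2103 with no filter on A and 384 at a threshold of 1. The count of all higher genes was 674, and 393 at A > 2, 1428 with no filter, 207 at a threshold of 1 and 442 with the whole interval beyond 0.5. A change of filter on A alters how many genes are tested, and a change of threshold or interval makes the call stricter.

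No paired analysis was possible because each group has 1 library, and leaving out a replicate was not possible either. Depth limits Irf7 in siVgll3 and genes with few reads, and the ratio of Ifnar2 over Ifnar1 leans on transcript length, an alternative chosen after seeing the data (0.927 and 1.15 in place of 3.27 and 4.19). Counting intervals hold no variation between cultures, animals or siRNAs.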
